A study of Mus musculus with 18 samples.

Results

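Dorsal root ganglion cultures collected at day 0, just before myelination, differed among themselves in Hoxa10, a homeobox gene of the posterior body axis. Of the 6 arrays of that day, 3 had a high level (above -2) and 3 a low one (below -6), and these 6 of the 18 arrays of the study are described here across all genes. The level of a gene is the log2 intensity of its brightest probe minus the 75th percentile of the array, so a level of 0 is the brightness at that percentile. The members were chosen by their Hoxa10 level, and the groups hold 3 arrays each, so every day 0 value below is a description and none was tested. In particular, the Hoxa10 difference itself, and those of the marker genes Hoxc10 and Hoxc9, are what defined the comparison and are not findings.

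The study grew explants of dorsal root ganglia, which hold the cell bodies of sensory neurons with their Schwann cells, satellite glia, fibroblasts, vessels and macrophages, from C57BL/6J mouse embryos at E13.5. The explants were kept for 12 days on matrigel in a growth medium, and RNA was taken at day 0 or after 10 or 22 days in a medium that starts myelination. All samples are untreated controls that differ only in time. Each day has 3 batches (M1 to M3), which the labels describe as separate pools of embryos collected on separate occasions, and each batch has an R1 and an R2 array that the labels call technical.

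Hox genes lie in the Hoxa, Hoxb, Hoxc and Hoxd clusters and are numbered by position in them. Genes with higher paralog numbers are switched on later and further towards the tail, so the set of Hox genes that a ganglion, its mesenchyme or its spinal cord level keeps on records its place along the body. Paralogs 9 to 13 mark the thoracic to caudal levels and the limb buds, and paralogs 1 to 4 the hindbrain and neck.

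The high arrays were M1R1, M2R2 and M3R1, and the low arrays were M1R2, M2R1 and M3R2. Values are given below in that order, high before low. By the labels of the array files each batch therefore held a high and a low array. The authors also deposited a table of normalized values, and 12 of its 18 columns matched the array file of another sample of the same day (Spearman correlation of at least 0.99991 with that file and at most 0.975 with any other). By that table's labels, batch 1 held high arrays alone, batch 3 low arrays alone, and batch 2 held M3R1 (high) and M1R2 (low). Neither source settles which batch an array came from. The female transcript Xist and the Y-linked Ddx3y, singled out after their values were seen, never occurred on the same array: Xist was well above background on 4 of the 6 day 0 arrays and Ddx3y on the other 2, M3R1 (high) and M2R1 (low). On days 10 and 22 Xist was well above background on 5 and 3 of 6 arrays and Ddx3y on the remaining 1 and 3. Another Y-linked gene, Eif2s3y, was well above background on 2 day 10 arrays. These were M1R2, at 2.23, and the Xist array M3R1, at -5.30, close to that array's lowest signal well above background (-5.39). A pool of embryos of both sexes would carry Xist and Ddx3y, and under either set of labels 2 of the 3 day 0 batches paired an Xist array with a Ddx3y array.

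Slide, brightness and sex did not divide the arrays as Hoxa10 did. The high arrays lay on slides 1, 2 and 3 and the low arrays on slides 1, 1 and 2. The share of spots well above background was 59.9 to 61.5% on the high arrays and 56.3 to 60.8% on the low ones. Over the 28123 features (a gene symbol or an unnamed probe) well above background on at least 3 of the 6 arrays, the closest pair was M3R1 with M3R2, which have opposite Hoxa10 levels (median absolute difference 0.159), followed by M1R1 with M2R2, both high (0.160). The farthest pair was M1R2 with M2R2 (0.343). The order depended on the measure. By the share of features differing at least 2-fold, the closest pair was M2R2 with M3R1, both high (3.52%). M3R1 with M3R2 followed (4.31%), and the farthest was M1R1 with M1R2, of opposite Hoxa10 levels (15.65%).

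RefSeq (mouse build GRCm38.p6) gives 2 start sites for Hoxa10, and the 250 bases before each are shown with that before Hoxd10, because these genes from different clusters were on together in the same arrays. Capitals mark the CCAAT box, a common promoter element, read on either strand.
Hoxa10, chr6:52234940-52235189, minus strand: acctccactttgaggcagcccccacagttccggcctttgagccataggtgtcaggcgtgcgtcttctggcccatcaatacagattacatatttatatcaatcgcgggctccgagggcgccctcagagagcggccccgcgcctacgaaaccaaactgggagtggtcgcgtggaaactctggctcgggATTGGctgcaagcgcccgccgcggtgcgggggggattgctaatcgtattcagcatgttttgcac
Hoxa10, chr6:52240855-52241104, minus strand: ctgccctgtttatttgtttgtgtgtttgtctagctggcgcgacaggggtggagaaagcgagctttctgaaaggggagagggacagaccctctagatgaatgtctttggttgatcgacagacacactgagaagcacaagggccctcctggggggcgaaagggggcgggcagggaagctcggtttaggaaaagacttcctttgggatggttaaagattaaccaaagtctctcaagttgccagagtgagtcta
Hoxd10, chr2:74691641-74691890, plus strand: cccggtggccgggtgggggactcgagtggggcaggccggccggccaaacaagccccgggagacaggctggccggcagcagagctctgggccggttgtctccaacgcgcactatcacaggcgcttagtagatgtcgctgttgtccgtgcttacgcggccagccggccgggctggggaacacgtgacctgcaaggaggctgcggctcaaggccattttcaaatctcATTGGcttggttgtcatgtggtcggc
The CCAAT box lay in 1 of the 2 Hoxa10 windows and in that of Hoxd10, against 33.8% of the 32851 promoter windows of that length in RefSeq, and in neither the Hoxa9 nor the Hoxd9 window. Searched on both strands, the core TTTATG bound by Cdx factors, which act upstream of posterior Hox genes, and the joint Hox and Pbx site TGATTTAT were in none of these 5 windows (10.8 and 0.837% of all windows). Such matches describe letters and not binding.

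Hoxa10 stood at -1.01, -0.75 and -0.62 on the high arrays and at -7.15, -7.36 and -7.66 on the low arrays. On the low arrays its probe was not well above background, which leaves a bound: the high arrays were at least 24.6-fold brighter, counted against the lowest signal well above background on each low array or the probe's own where higher. The high values lie within 0.4 of each other, and no array falls between -1.01 and -7.15. Hoxc10, its paralog in the Hoxc cluster, stood at -1.0, 0.13 and -0.21 against -6.78, -5.91 and -6.52, at least 33.2-fold. Hoxc9 stood at 2.07, 1.69 and 1.96 against -4.73, -2.51 and -7.67, with the low arrays spread widely and M3R2 not above background.

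The other genes of paralog groups 9 and 10 outside the Hoxb cluster took the same sides. Hoxd9 stood at -1.74, 0.54 and 0.02 against -5.22, -5.54 and -4.08 (difference of the means 4.55). Hoxa9 stood at -1.58, -1.80 and -1.02 against -3.44, -4.05 and -3.34, a difference of 2.14 by its brightest probe and 2.57 by its other probe. Hoxd10 stood at -5.13, -0.30 and -1.23 against -7.38, -7.58 and -7.91, at least 9.14-fold, with M1R1 far below the other high arrays. Hoxb9 did not part the arrays, at 2.65, 1.91 and 2.58 against 2.69, 1.59 and 2.70 (difference 0.05). Of the 16 genes of paralogs 9 to 13, 8 could be counted and 6 of these were higher. These 6 include Hoxa10, Hoxc10 and Hoxc9, which defined the comparison, and without them 3 of 5 were higher. Hoxd10, like Hoxa10 and Hoxc10, passed the filter on dim probes only through the high arrays, which leaves Hoxd9 and Hoxa9, 2 of 4. With normexp, another background correction, differences of dim genes such as these were smaller: that of Hoxa10 was then 2.68 in place of 6.60, that of Hoxd10 1.95 in place of 5.40 and that of Hoxd9 2.76. Here and below, higher or lower means that all 3 high arrays lay on one side of all 3 low arrays and that the means differed by at least 1, which held for 721 features upwards (2.56%) and 435 downwards (1.55%).

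The high arrays were not alike beyond paralog 10. Hoxa11 stood at -6.97, -0.87 and -1.51 on the high arrays, against -7.22, -7.21 and -7.75. Hoxc11 stood at -7.96, -1.68 and -3.11 and Hoxd11 at -7.90, -1.62 and -2.96, with every low array under -6.6 for both. M2R2 and M3R1 thus had paralog 11 transcripts well above background, and M1R1 had none. Hoxc13 followed the same pattern, at -7.84, -4.14 and -5.04, and Hoxd12 was well above background on M2R2 alone, at -4.72. The antisense transcript Hoxa11os, which overlaps Hoxa11, stood at -3.59, -0.13 and -0.81 against -4.18, -3.78 and -3.55. Hoxa13 and Hoxd13 were not well above background on any of the 6 arrays. These genes fell below the filter or the groups overlapped, so none of them is in the counts.

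The low arrays also differed among themselves. Hoxa7 stood at -1.50 on M2R1 against 2.49 on M1R2 and 2.99 on M3R2, and at 2.21 to 2.89 on the high arrays. Hoxc6 stood at -1.0 on M2R1 against 1.82 and 1.85 on the other low arrays. M2R1 thus stood apart from the other low arrays in these central Hox genes. On that array Hoxb7 stood at 2.84 and Hoxb8 at 0.35, within or above the range of the other 5 arrays.

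**Figure D1:**
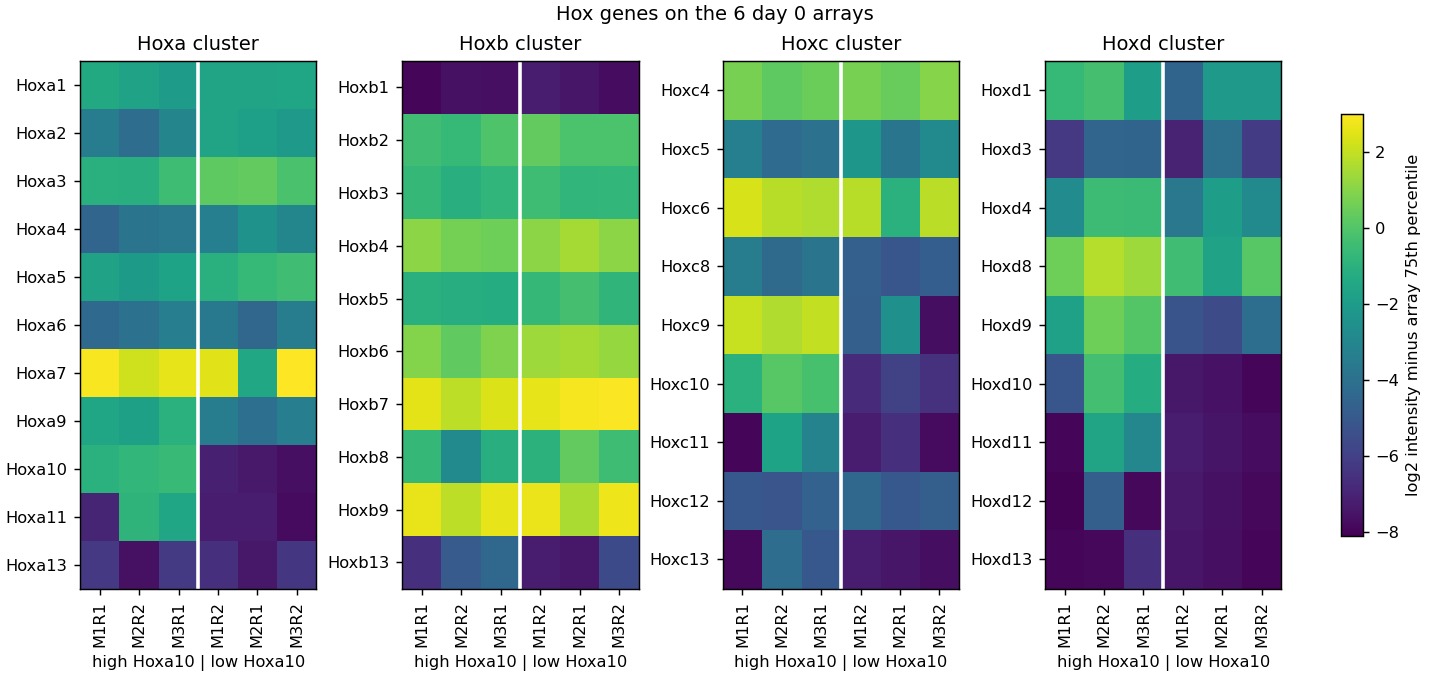
Levels of 39 Hox genes on the 6 day 0 arrays, 1 panel a cluster, genes from paralog 1 at the top to 13 at the bottom; columns left of the white line are the high Hoxa10 arrays, and colour is the log2 intensity minus the array's 75th percentile. The dark blocks at the lower right of the Hoxa, Hoxc and Hoxd panels are paralogs 9 to 11 on the low arrays, and Hoxb9 is bright on every array. M1R1 is dark from paralog 11 on, apart from Hoxc12, which stands at a similar level on all 6 arrays.

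Some genes towards the other end of the clusters were lower on the high arrays. Hoxa2 stood at -3.38, -4.11 and -3.04 against -1.60, -1.83 and -2.11 (difference -1.66). Hoxa3, Hoxa4 and Hoxa5 were lower by -1.03, -1.05 and -1.1, and Hoxb5, Hoxb6 and Hoxb7 lay apart in the same direction by smaller amounts (-0.56, -0.69 and -0.51). For some genes of the Hoxd and Hoxc clusters the sides were turned: Hoxd1 was higher by 1.99, Hoxd8 by 1.88 and Hoxc8 by 1.03. The Hoxc genes were not all on 1 side, since Hoxc4 and Hoxc5 differed by -0.23 and -0.91 and Hoxc6 by 1.05, all with overlap. Hoxd1 rests on little separation, since M3R1 at -1.91 lies 0.21 above the nearest low array. Of the 11 tested genes of paralogs 1 to 4, 1 was higher and 3 lower, and of the 11 of paralogs 5 to 8, 2 were higher and 1 lower. These counts turned with the setting: the first became 2 higher and 1 lower without M1R1 or without M2R1, 3 and 1 between M3R1 and M1R2 alone, and 1 and 1 with a normexp background. The second became 1 higher and 3 lower without M1R1, 1 and 2 without M2R1, 2 and 0 without M2R2 or without M3R2, and 1 and 0 with normexp. With normexp, Hoxa3, Hoxa4, Hoxa5 and Hoxc8 fell short of a difference of 1 (-0.93, -0.55, -0.93 and 0.33), and each of them did so without some single array as well. None of the 10 measured Hox cofactor and upstream genes (Pbx, Meis and Pknox families, Gdf11) passed the rule (median difference -0.20), and Cdx1, Cdx2 and Cdx4 were too dim to be counted.

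Among the 14940 named genes, 598 were higher (4%) and 57 lower (0.382%). The median difference over all 28123 features was -0.06. Of the 435 lower features, 242 were probes for unnamed genome intervals, of which 6687 were tested, and 55 of these intervals were higher.

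The genes with the largest differences were of several kinds. Smoc2, a secreted calcium-binding matrix protein, had the largest difference among genes well above background on all 6 arrays, at 3.50, 3.52 and 3.66 against 0.11, 0.11 and -2.11 (difference 4.19). The high arrays lie within 0.2 of each other, and the low array M3R2 stands apart from the other low ones. Crispld1, a secreted protein, stood at 0.30, 0.43 and 0.63 against -3.08, -3.52 and -3.02, with a narrow spread on both sides (difference 3.66 ± 0.17 SD among the high and 0.27 among the low arrays). The tight junction protein Cldn1 differed by 3.19, the clotting factor subunit F13a1 by 3.03, the collagen Col8a2 by 3.00, the carbonyl reductase Cbr2 by 3.00 and the protease genes Gzme and Try5 by 3.37 and 2.93. The second probes of Col8a2 and Cbr2 gave 2.02 and 1.13. Among genes not well above background on any low array, the receptor Tlr12 was at least 11.1-fold higher, the potassium channel subunit Kcne4 8.87-fold and the aminopeptidase Enpep 6.48-fold. With a normexp background their differences of 3.88, 3.90 and 3.40 became 1.58, 1.61 and 1.09.

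Egr1, an immediate early transcription factor, also had a large mean difference (2.99), but it rested on some of the arrays: 5.59 and 5.43 on M1R1 and M2R2, 1.82 on M3R1, and 1.46, 1.14 and 1.28 on the low arrays. Other immediate early genes, singled out after their values were seen, had the same 2 arrays on top. Ier2 stood at 0.17, 0.13 and -1.64 against -1.46, -2.27 and -1.66, with M3R1 among the low arrays, and Btg2 at 1.03, 0.85 and -0.75 against -0.99, -1.5 and -1.34. M1R1 and M2R2 are the arrays that the value table places together in batch 1.

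Transcription factors of limb and trunk mesenchyme lay mostly on the high side. Of 20 tested genes 15 were higher and 0 lower (median difference 1.36), 2 of them measured only through the high arrays. Meox2, a factor of somites and limb muscle precursors, stood at 0.71, 0.41 and 1.1 against -1.87, -1.57 and -3.18 (difference 2.95). Pax1 and Pax9, factors of the sclerotome that forms the vertebrae, differed by 3.13 and 2.07, Pax1 not being well above background on the low arrays and differing by 0.88 with a normexp background. Foxd1 stood at 0.96, 0.71 and 0.75 against -0.46, -0.98 and -1.95, and Tbx18 at -2.99, -2.58 and -2.29 against -4.04, -4.0 and -5.30. Twist1, Twist2, Prrx1, Prrx2, Foxc1, Foxc2, Tbx15, Meox1, Osr2 and Irx3 made up the rest. The limb bud genes Tbx4, Tbx5, Pitx1 and Hand2 did not pass the filter. None of 15 cartilage and sclerotome products was higher or lower, Col2a1 and Acan among them (median 0.11). The count of 15 became 10 without M3R2, 8 with a normexp background, and 9 between M3R1 and M1R2 alone, a pair with no replicate, where 1 was lower.

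Fibroblast genes split. Of 21 tested, 9 were higher and 0 lower (median 0.53). Pdgfra, a growth factor receptor that marks fibroblasts and mesenchyme, stood at 0.45, 0.72 and 0.48 against -2.24, -1.72 and -3.11 (difference 2.91). The elastic fibre protein Mfap5 differed by 2.81, the protease Fap by 2.30, and the small matrix proteoglycans Lum and Dcn by 2.10 and 2.08. Dcn stood at 7.10, 7.55 and 7.51 against 5.70, 5.75 and 4.48. Lox, which cross-links collagen, Col6a2, Fn1 and Fbn1 were the other 4. The bulk fibrillar collagens did not follow: Col1a1 stood at 7.11, 7.25 and 7.38 against 7.18, 7.26 and 7.28 (difference 0.01), and Col5a1, Postn and Fbln2 differed by 0.06, -0.01 and 0.11. The fibroblast count was 8 or 9 whichever array was left out, and 9 with a normexp background. Between M3R1 and M1R2 9 were higher and 1 lower. These are whole cultures, in which fewer cells of a type and less RNA per cell cannot be told apart.

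**Figure D2:**
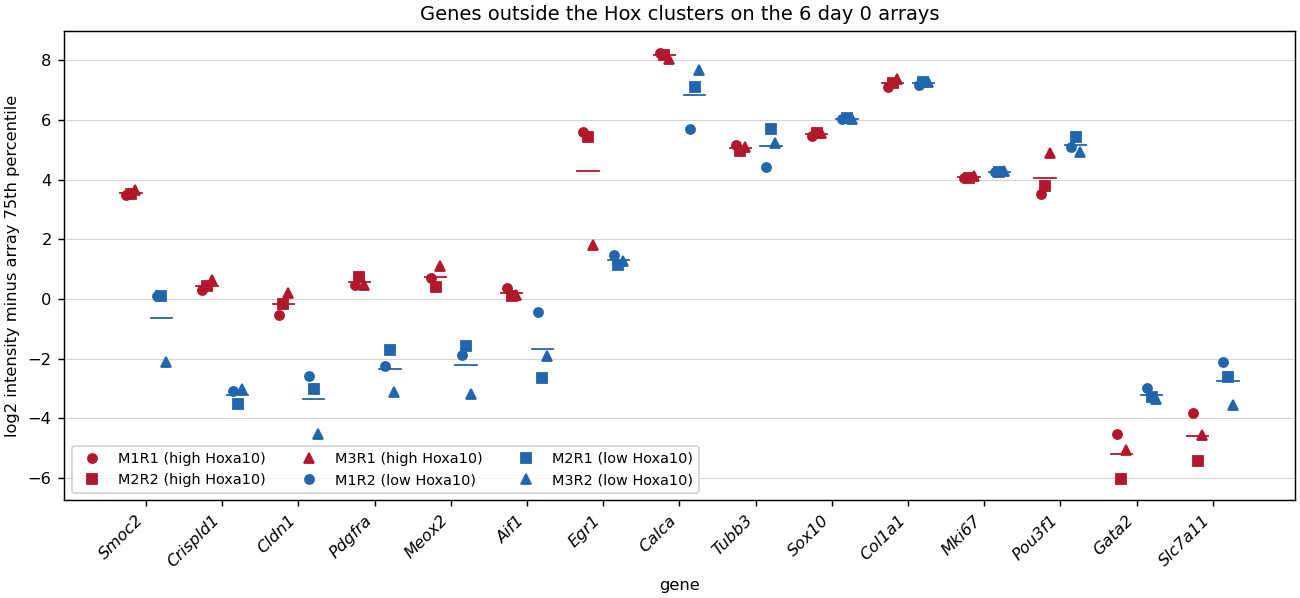
Levels of 15 genes outside the Hox clusters on the 6 day 0 arrays, red for high and blue for low Hoxa10, with the mean of each group as a line; the vertical axis is the log2 intensity minus the array's 75th percentile. Smoc2, Crispld1, Cldn1, Pdgfra and Meox2 have all red points above all blue ones by more than 1.5, while Tubb3 and Col1a1 overlap and 2 of the 3 red Egr1 points stand alone.

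Barrier tissues showed a similar mixture. The perineurium is the layered sheath around nerve bundles, and of 17 tested perineurial and barrier genes 4 were higher and 0 lower (median 0.39). Cldn1 stood at -0.55, -0.18 and 0.19 against -2.58, -3.01 and -4.52. The hedgehog effector Gli1 stood at 1.38, 1.54 and 1.67 against 0.59, 0.32 and -0.24, and the factor Klf5 and the retinal-metabolizing enzyme Aldh1a1 differed by 1.27 and 1.02. The glucose transporter Slc2a1, a perineurial marker, lay apart by less (3.54, 3.95 and 3.82 against 3.28, 3.24 and 3.09, difference 0.56), and Ptch1, Krt23 and Itgb4 differed by 0.16, 0.10 and 0.39 with overlap. Without M3R2 the count became 2 higher and 1 lower, without M3R1 4 and 2, between M3R1 and M1R2 alone 6 and 1, and on slide 1 alone 1 and 2. Of 13 meningeal genes 6 were higher and 0 lower (median 1.21). The median depended on the setting: it was 0.63 without M3R2, 0.61 between M3R1 and M1R2 alone (4 higher), 0.42 with a normexp background (4 higher), 0.35 on slide 1 alone (5 higher and 2 lower) and 1.95 on slide 2 alone (11 higher). Here and elsewhere, counts for that pair or a single slide use the difference of at least 1 alone. By that looser rule 1709 of all 28123 features were higher and 570 lower for the pair. On slide 1 alone 1213 were higher and 2346 lower, and on slide 2 alone 1267 and 546. The gap junction genes Gjb6 and Gjb2 differed by 2.98 and 1.94, but by 0.78 and 0.94 with normexp, and Igfbp2 by 1.69. Bgn, Zic1 and Foxc1, the last also in the mesenchyme list, were the others. Ptgds, an abundant product of the arachnoid, stood at -2.78, -1.95 and -2.12 against -2.61, -0.93 and -1.55.

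Macrophage genes were the other list that lay almost wholly on one side, with 14 of 16 higher and 0 lower (median 1.35). The microglia and macrophage receptor Cx3cr1 stood at 1.56, 1.46 and 0.47 against 0.25, -1.28 and -1.78 (difference 2.10). Aif1 stood at 0.37, 0.09 and 0.15 against -0.45, -2.65 and -1.90, and Adgre1 at -0.09, -0.01 and -0.03 against -0.81, -1.65 and -2.31. M1R2 was the highest of the low arrays for each of these. Between M3R1 and M1R2, which the value table places in 1 batch, 1 of the 16 differed by at least 1 and the median was 0.61. The growth factor receptor Csf1r differed by 1.35 on its brightest probe and by 0.23 to 1.70 over its 3 probes. Itgam and Lyz2 differed by -0.29 and 0.14. The summed level of the 16 genes, which brighter members such as Itgam dominate, overlapped between the groups, at 6.36, 6.47 and 6.64 against 6.48, 6.07 and 6.38. The part of macrophages in the other differences was not tested.

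Few markers of vessels and muscle were higher by the rule or could be counted. Their medians were 0.70 for mural cell, 0.27 for endothelial and 0.87 for skeletal muscle genes (0.48, 0.07 and 0.43 with normexp). Without a minimum of the difference 4 of 7, 1 of 10 and 4 of 5 lay apart upwards, beside 7.13% of all features. Of 7 mural cell genes 2 were higher, Abcc9 (1.73, and 0.24 with normexp) and Acta2 (1.68), and Cspg4 and Notch3 lay apart by 0.70 each. Of 10 endothelial genes 1 was higher, Cdh5, at 1.33, 1.18 and 1.04 against 0.16, 0.52 and -1.30 (difference 1.39, and 0.84 without M3R2), while Pecam1 and Kdr differed by -0.16 and -0.21. Of 18 skeletal muscle genes 5 could be counted and Acta1 was higher (1.36, but 0.95 with normexp), with Myod1, Myog, Myf5 and Myf6 not passing the filter. None of the melanocyte (8 tested), epithelial (7), central glia (9), erythroid (3) and motor neuron and spinal cord (16) markers was higher or lower.

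General neuronal genes stood near level, while the median of sensory neuron genes lay on the high side. None of 21 pan-neuronal genes was higher or lower (median 0.15), and the neuronal tubulin Tubb3 stood at 5.15, 4.97 and 5.10 against 4.44, 5.71 and 5.23 (difference -0.05). The sensory neuron factors Isl1 and Pou4f1 differed by 0.46 and -0.07 with overlap. Of 25 sensory neuron genes 1 was higher and 0 lower (median 0.40), a count no larger than the share of 4% among all named genes. That gene was Calca, which encodes the peptide CGRP of pain-sensing neurons, at 8.26, 8.19 and 8.04 against 5.71, 7.12 and 7.68 (difference 1.33, and 0.77 without M1R2). Without a minimum of the difference 5 lay apart upwards and 0 downwards, a share to be set beside 7.13% of all features. Large mean differences of the pain-sensing channel Trpv1 (2.13) and the receptor Mrgprd (3.30) came with overlap: Trpv1 stood at 1.41, 0.96 and -1.42 against -3.28, -1.45 and -0.70. The sensory count of 1 became 10 without M3R1, 7 without M3R2 and 4 without M2R1. Between M3R1 and M1R2 alone 8 of the 25 differed by at least 1 (median 0.83), as did 12 on slide 1 alone (median 0.92) and 5 on slide 2 alone (0.52), and 5 of the 21 pan-neuronal genes did so between M3R1 and M1R2 (median 0.79). Of all 28123 features 1709, 1213 and 1267 were higher by at least 1 in that pair, on slide 1 and on slide 2. Of 7 sympathetic genes 1 was lower, the factor Gata2, at -4.54, -6.03 and -5.07 against -2.99, -3.29 and -3.37 (difference -2.0, and -0.79 with normexp).

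The medians of Schwann cell and myelin genes lay level or slightly to the other side. Of 23 genes of the Schwann cell lineage 0 were higher and 1 was lower (median -0.16). That gene was Pou3f1, a factor of Schwann cells about to myelinate, at 3.51, 3.80 and 4.90 against 5.10, 5.42 and 4.92, with M3R1 and M3R2 only 0.02 apart (difference -1.08, and -0.80 without M1R1). Sox10, the lineage's central factor, had a small difference but a narrow spread, at 5.47, 5.58 and 5.58 against 6.02, 6.06 and 6.02 (difference -0.49). Egr2, singled out after its values were seen, had the largest difference of this list in size (1.18), to the high side and with overlap. It stood at 4.75, 4.66 and 2.60 against 3.46, 2.20 and 2.81. Of 17 peripheral myelin genes 1 was lower, the tight junction protein Cldn19 (-1.01, and -0.92 with normexp), and 6 lay apart downwards without a minimum, where 13.8% of all features did so (median -0.34). The probes of Mbp differed in sign, from -0.29 to 0.31. Of 13 satellite glia genes 2 were higher, the glutamate transporter Slc1a3 (3.08, not well above background on the low arrays) and Bmp2 (1.39), which differed by 0.85 and 0.56 with normexp, and Fabp7, Glul and Apoe differed by 0.84, 0.17 and 0.02. No cell cycle gene of 25 was higher or lower, but 16 lay apart downwards by small amounts: Mki67 stood at 4.04, 4.06 and 4.14 against 4.27, 4.26 and 4.29 (list median -0.22).

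**Figure D3:**
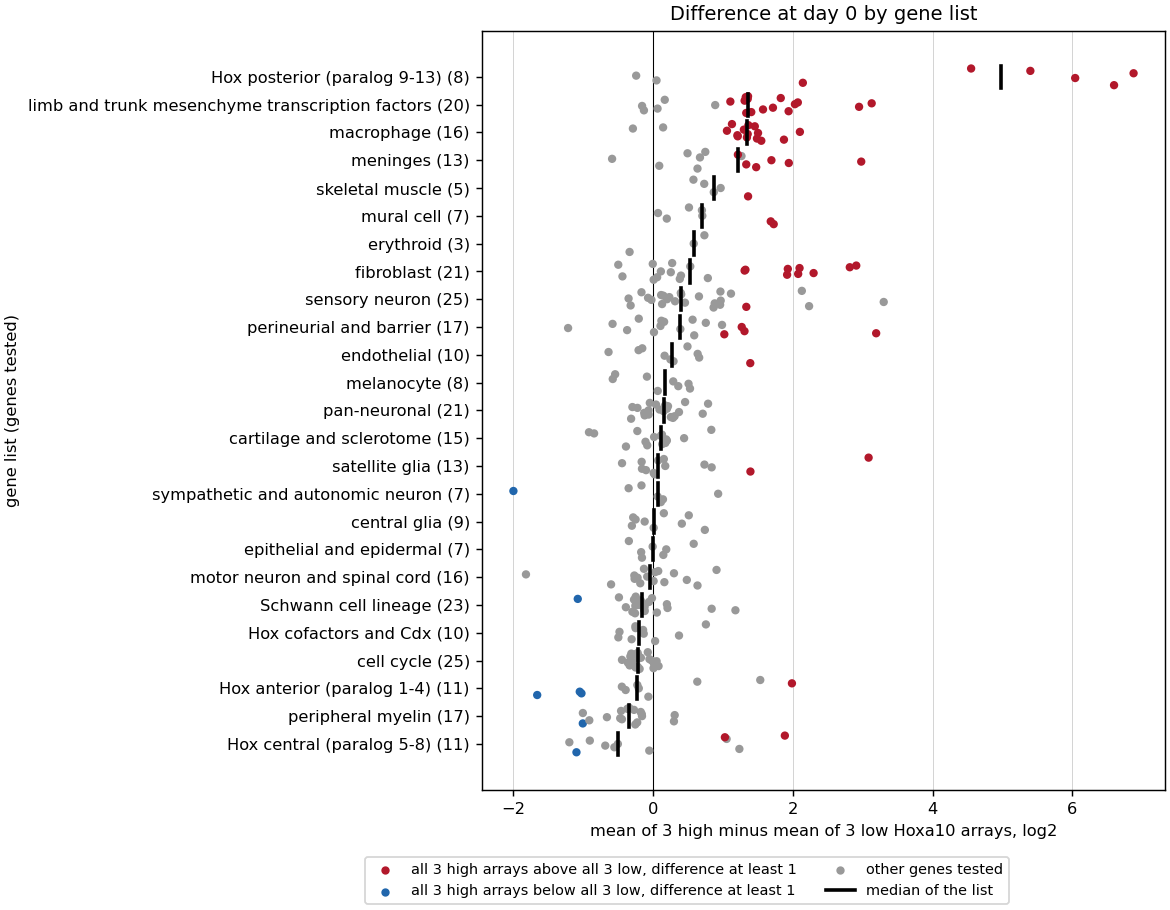
Difference between the means of the 3 high and the 3 low Hoxa10 arrays at day 0 (log2) for the tested genes of 25 lists with at least 3 tested, ordered by median; red genes were higher and blue ones lower by the rule given in the text. Mesenchyme factors, macrophage and meningeal genes lie right of 1 at the median. Across settings these medians ranged from 0.94 to 1.98, 0.61 to 1.71 and 0.35 to 1.95, so each fell below 1 in some settings. The pan-neuronal, Schwann cell, myelin and cell cycle lists lie within 0.4 of 0 at the median. Across settings the pan-neuronal median ranged from -0.16 to 0.79 and the Schwann cell median from -0.37 to -0.09. The myelin median ranged from -0.42 to -0.27 and the cell cycle median from -0.44 to -0.15.

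Among named genes that were lower and well above background on all 6 arrays, the largest difference was that of the noncoding RNA 9530059O14Rik, at -3.94, -3.40 and -1.84 against -0.32, -1.10 and -1.23 (difference -2.18). Among these genes the cystine transporter Slc7a11 followed at -3.83, -5.45 and -4.55 against -2.12, -2.61 and -3.55 (-1.85). The chemokine Cxcl14, among the brighter of these, stood at 1.74, 1.62 and 3.09 against 4.32, 3.58 and 3.96 (-1.80), and the receptor Gpr182 at -4.34, -4.26 and -4.67 against -2.39, -2.41 and -3.11 (-1.79). Kcnip1, Cacng5, Nod2, Filip1 and the nuclear RNA Neat1 differed by -1.70, -1.43, -1.38, -1.37 and -1.36, and Hoxa2, given above, completes the 10. Several of these calls ended under an alternative. With a normexp background Slc7a11 and Gpr182 differed by -0.97 and -0.83 and the groups of Cacng5 overlapped, with the mean of its probes Kcnip1 differed by -0.70, and without M1R1 Neat1 differed by -0.98. For 79.1% of the 435 lower features M3R1 was the high array nearest to the low ones, and for 83.9% M3R2 was the low array nearest to the high ones. Only B130006D01Rik was well above background on the 3 low arrays and none of the high ones among named genes, at least 1.62-fold.

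The arrays of days 10 and 22 were not used to make the groups, and there Hoxa10 varied as well. At day 10 it stood, for M1R1, M1R2, M2R1, M2R2, M3R1 and M3R2, at -7.72, -4.60, -7.10, -7.14, -5.28 and -1.27, well above background on M1R2 and M3R2. At day 22 it stood at -0.96, -2.77, -3.80, -1.29, -4.44 and -1.86, well above background on all. By the array files' labels M3R2 was low at day 0 and the highest array at day 10. By the value table's labels, batch 1 held M1R1 and M2R2, both high at day 0, both low at day 10 and the 2 highest at day 22.

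The question put to these 12 arrays was which features go with Hoxa10. In limma's test of the slope on Hoxa10, held at each array's lowest signal well above background, with day as a term and batch as a random block, 0 of 28448 features rose and 0 fell at an adjusted p under 0.05 (0% each). At an unadjusted p under 0.05, 1212 had a slope above 0 (4.26%) and 1991 one below 0 (7%). Hoxa10 set against its own floored level had a slope of 1.18 with an adjusted p of 0.0523, so a miss says little. Hoxc10 had a slope of 1.08 ± 0.16 (SE; log2 per log2 of Hoxa10, 95% interval 0.73 to 1.43, limma adjusted p = 0.279), Hoxc9 0.67 ± 0.18 (adjusted p = 0.413), Hoxd8 0.56 ± 0.11 (0.376), Hoxd9 0.51 ± 0.14 (0.413) and Hoxa9 0.41 ± 0.15 (0.424). Pdgfra had 0.18 ± 0.11 (0.547), Dcn 0.18 ± 0.09 (0.475) and Csf1r 0.26 ± 0.15 (0.521). In none of the genes with a slope given here did it differ between the days beyond the threshold (limma's interaction, adjusted p of 0.311 or more).

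The outcome rested on 1 array. Without day 10 M3R2, the only day 10 array with Hoxa10 near the level of the high day 0 arrays, 221 features rose (0.777%) and 192 fell (0.675%), with Hoxc10 at an adjusted p of 0.0698 and Csf1r at 0.0754. On that array 12 of 39 Hox genes lay above the other 5 day 10 arrays, 6 of them by at least 1: Hoxa10, Hoxc10, Hoxc9, Hoxd9, Hoxd8 and Hoxd4. Hoxc9 stood at 2.30, against 0.12 or lower on the other day 10 arrays, whereas Hoxd10 at -4.77 lay below M3R1 (-3.25) and Hoxb9 at 1.94 among the others. Pdgfra, at 0.14, also lay among the others (-0.72 to 0.54). Over the other 28 of 29 alternatives the count was 0 to 2 in each direction.

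The signs of the slopes in the later arrays, given as a description because features are not independent, went with the day 0 sides. Of the 721 features higher at day 0, 683 were measured later, and 587 of these (85.9%) had a slope above 0 (median 0.18). Of the 435 lower features, 363 were measured and 50 (13.8%) had a slope above 0. Over all features 44.9% did (median -0.01). The days share no array, but the cultures of a batch may share embryos. By list, 9 of 9 measured posterior Hox genes other than Hoxa10, Hoxc10 and Hoxc9 had a slope above 0 (median 0.39), as did 15 of 16 macrophage genes (0.26), 14 of 15 meningeal genes (0.23), 19 of 22 fibroblast genes (0.06) and 14 of 19 mesenchyme factors (0.03), and 3 of 17 myelin genes (-0.06). Among those 9 posterior Hox genes, Hoxa11, Hoxc11 and Hoxd11 were not well above background on any day 10 array. Hoxb9 and Hoxc12 had slopes within their error of 0 (0.008 ± 0.094 and 0.089 ± 0.147, SE). Cell cycle genes did not keep their day 0 side, with 20 of 24 slopes above 0. Nor did sensory neuron genes, with 11 of 24 above 0 (median -0.004). Perineurial and barrier genes had 11 of 17 above 0 (0.03) and Schwann cell lineage genes 8 of 22 (-0.03).

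**Figure D4:**
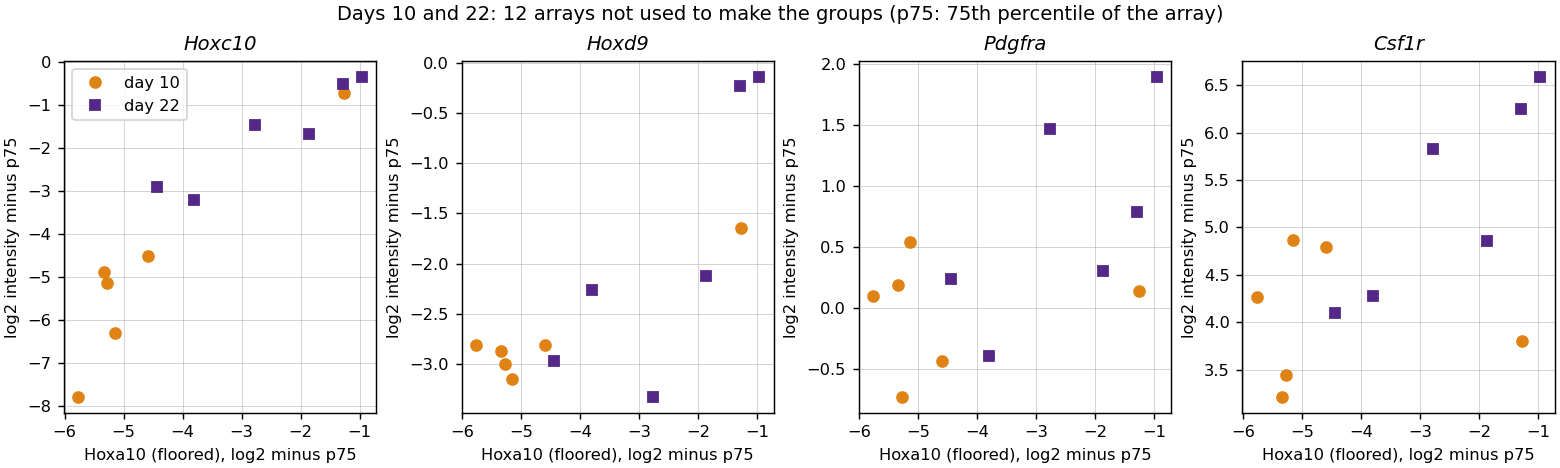
Levels of Hoxc10, Hoxd9, Pdgfra and Csf1r (vertical, log2 intensity minus the array's 75th percentile) against Hoxa10 held at each array's lowest signal well above background (horizontal, the same scale) on the 6 day 10 and 6 day 22 arrays. Hoxc10 climbs with Hoxa10 on both days, whereas the day 10 array at a Hoxa10 of -1.27, M3R2, has Pdgfra at 0.14 and Csf1r within the range of the other day 10 arrays.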

How the data were processed

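Total RNA of 18 cultures was hybridized to 1-colour Agilent arrays. Per the file headers, the authors' background-subtracted intensity of each spot came from Agilent software (Feature Extraction 10.7.1.1; the submitters' processing notes name 10.7.1). The deposited flags mark outlier and well-above-background spots, per the file headers. The authors' deposited value table is on a linear intensity scale; how it was made is not given in the sources used here. Depth does not apply to arrays, and their number limits the precision. The labels do not show whether the arrays of a batch are separate cultures. Where a batch, by its labels, paired an Xist array with a Ddx3y array, its arrays were not repeats of 1 RNA. The p-values measure the spread between these arrays, which in the other batches may be technical.

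Here log2 intensity minus the array's 75th percentile (non-control spots, outliers left out) was averaged over spots of a probe. The files name no genes: 26582 of 55681 probes matched 20145 symbols of RefSeq (GRCm38.p6) by accession, and the brightest probe stood for a symbol. At day 0 a probe had to be well above background on 3 of 6 arrays. For days 10 and 22 (3 of 12 arrays), limma 3.58.1 (R 4.3.3) fitted the slope, and p-values were Benjamini-Hochberg adjusted over 28448 features. The random block (duplicateCorrelation) was batch and day, with a correlation of 0.138. In alternatives that correlation came from every 10th feature. Python 3.11.15, pandas 2.3.3, numpy 2.4.6 and matplotlib 3.10.9 did the rest. The fit was tested on simulated data. No mean-signal column was used: the normexp alternative (offset 50) took median spot and background signals, unlike the plan.

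The batch numbers mark pools in the labels. Deviations of same-numbered batches from the day 10 and day 22 means had correlations of 0.33, -0.13 and 0.31 with the files' labels, and 0.12, -0.02 and 0.20 with the value table's.

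The members, the 26 gene lists and the naming rule (the 10 largest differences a direction among genes well above background on all 6 arrays, the 6 largest bounds, the 3 largest called members of a list, all Hox genes and fixed genes, of which 1 is not reported here) were chosen with earlier results of these data known. Other genes were named after their values were seen. Alternatives covered background, scaling, filters, probes, blocks, slide, days, the covariate and leaving out each array.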

Additional observations from a re-analysis of the deposited data

Results flagged for a closer look

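At day 0 a single array stood far from the other 5 in 2 of the 68 genes looked at. Hoxa7 on array M2R1 was at -1.50, against 2.21 to 2.99 on the other 5 arrays. Hoxc6 on the same array was at -1.0, against 1.68 to 2.33. In both, the gap to the nearest array relative to the range exceeded Dixon's limit for 6 values. Chance alone gives about 1 in 20 groups, and 2 of 68 is below that share. Many of these genes were named because they part the arrays by Hoxa10, so that rate need not hold for them. Days 10 and 22 were not looked at in this way.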

How the results depend on the processing

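Of 840 values of 84 named day 0 differences under the alternatives, 44 moved by more than the spread between arrays. The 840 include 6 settings that each left out 1 array, and 0 values moved there. Leaving out 1 array shifts a group mean by less than that spread, so these settings could not add to the 44. The share of values that moved is therefore no measure of stability. Of the 59 called differences 0 changed sign, and changes of sign were not counted for the other named genes. Groups that lie apart cannot change sign when 1 array is left out, so only the other settings could show such a change. Of the 44, 32 came with a normexp background, which ended 17 of the 59 calls and made 26 of the differences over 1.5 times smaller. Leaving out 1 array ended 0 to 7 of the 59 calls. Of the day 0 features, 721 were higher and 435 lower; a normexp background left 298 and 76, so that 79.7% rather than 62.4% of the calls were higher. Requiring all 6 arrays well above background left 475 and 277, and asking for no minimum of the difference gave 2005 and 3890; with no filter 801 were lower. Leaving out 1 array gave 741 to 1014 higher and 161 to 1121 lower, with 161 without M1R1, 985 without M3R2 and 1121 without M3R1. Without an array fewer values need to lie apart, so counts can grow by construction. The list counts without single arrays and within the value table's batch 2 or 1 slide were added after the data were seen.

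Of the features tested against Hoxa10 on days 10 and 22, 0 rose and 0 fell. The counts were 2 rising with a normexp background, 1 with the value table's batches as random block, 1 rising and 1 falling on day 22 alone, and 0 to 221 rising and 0 to 192 falling without 1 array. With batch number as a fixed replicate block 1 feature rose and 0 fell, and with the value table's numbers as replicate block, added after the data were seen, 2 rose and 1 fell; the second pairing gave Hoxc10 an adjusted p of 0.0323. Hoxc10 ranged from 0.00275 (normexp) to 0.9998 (6 batch means) in adjusted p. On day 10 alone the slopes of Pdgfra (-0.012) and Csf1r (-0.089) reversed. The cause of these changes was not tested.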

Other observations

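Further genes, singled out after their values were seen, had large day 0 differences but were not well above background on every array, so the naming rule passed them over. Thbs4, a matrix protein of tendon and muscle attachment, stood at 1.54, 0.85 and 1.82 on the high Hoxa10 arrays against -2.18, -2.74 and -5.96 on the low ones. Itgbl1, a secreted integrin-like protein, stood at -0.16, 0.40 and 0.15 against -3.09, -3.32 and -6.64. The angiotensin receptor Agtr2 stood at -0.73, -1.9 and -1.69 against -6.5, -4.59 and -5.0.

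The imprinted growth genes Igf2 and Dlk1 also lay on the high side. Igf2 stood at 1.66, 1.32 and 1.99 against 0.17, -0.93 and -0.49, and Dlk1 at -0.06, 0.62 and 1.83 against -1.56, -1.86 and -1.26. The nuclear RNA Malat1 overlapped, at -0.19, 0.51 and 1.63 against 2.37, 1.75 and 1.15, with M1R1 lowest and M1R2 highest.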
